A study of Homo sapiens with 12 samples.

Results

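Ribosome biogenesis and nucleolar genes were described in human liver cancer cells after knockdown of the long noncoding RNA FASRL. The 60 genes were chosen by name and role (RNA polymerase I, small and large subunit processing factors, and proteins of small nucleolar ribonucleoproteins). Of these, 58 were among the 8842 genes listed for every library, and TAF1D and WDR36 were not listed. All 58 passed the filter on low values (1 or more in 3 or more of the libraries fitted) in every comparison.

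The study examined how FASRL, an RNA transcribed under a superenhancer, acts on lipid metabolism in liver cancer. HepG2 and LM3 are human lines that the study used as hepatocellular carcinoma lines. They were harvested 48 h after transfection with either siFASRL, which targets FASRL, or siNC, the negative control. Each of the 4 groups had 3 replicates, which gave 12 libraries of poly(A) RNA read on a BGISEQ-500. The groups were HepG2 with siNC, HepG2 with siFASRL, LM3 with siNC and LM3 with siFASRL, all at 48 h. Nothing in the labels says that replicates were separate cultures, so p-values measure the spread between these samples, which may be technical.

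The deposited values are normalized RSEM values, and whether they are FPKM or TPM is not stated. Read depth is therefore unknown. The listed values summed to between 333193 and 338379 in HepG2 siNC, 347211 and 355094 in HepG2 siFASRL, 316534 and 321859 in LM3 siNC, and 346884 and 348573 in LM3 siFASRL. Across the listed genes, replicates of a group correlated with r between 0.9946 and 0.9988. FASRL itself was not listed, so its knockdown was not measured here. The basis on which genes were listed is not given in the sources used here. In HepG2, 5 of 6367 genes averaging 5 or more (0.0785%) had a log2 fold change between -0.2 and -0.04, against 578 of 5937 (9.74%) in LM3. Shares of genes called, in LM3 as in HepG2, therefore refer to the listed genes and not to all expressed genes.

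The label of the lines was checked against hepatocyte markers, of which 9 of 10 were listed. Their summed value was 4688, 4656 and 4233 in the HepG2 siNC libraries, with SERPINA1 the most abundant. In the LM3 siNC libraries it was 14.8, 19.3 and 17.5, mostly from HNF4A, and ALB, AFP, APOA1 and TTR were at or near 0. LM3 thus had little of these markers other than HNF4A in these data, whereas HepG2 had them. With siNC, HNF4A was 14.4, 14.4 and 14.2 in LM3 and 26.8, 27.8 and 23.8 in HepG2.

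Ribosomes are assembled in the nucleolus. RNA polymerase I transcribes a long precursor of the ribosomal RNAs, small nucleolar ribonucleoproteins (snoRNPs) guide its chemical modification, and a large assembly called the small subunit processome folds and cleaves the part that becomes the small subunit, while other factors mature the large subunit. The transcription factor MYC is a known activator of many of these genes, and liver cancer cells often have enlarged nucleoli.

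Promoters are shown because nearly all of these genes moved together. RefSeq windows (GRCh38.p14) from 250 bases before to 50 bases after the transcription start were found for 50 of the 58 genes. The table has no entry for POLR1E, BOP1, DDX18, RRP1B, RRS1, RRP12, NOLC1 and NOP58. Motifs were searched on both strands: the E-box CACGTG, a palindrome known to be bound by MYC and USF1, the ETS core CCGGAAG, and the YY1 motif AAGATGGC. The last letters of the ETS core, AAG, can also be the first letters of the YY1 motif. A window of EBNA1BP2, a large subunit factor, had an E-box and a pair of ETS cores. PES1, which acts in large subunit maturation, FBL, the methyltransferase of box C/D snoRNPs, RRP9, the U3 snoRNP protein, BYSL, a late small subunit factor, and UTP20, a processome component, all had an E-box near the start. NAT10 is shown as the gene that fell in HepG2, and DKC1 as one of the genes with the largest rise and none of the motifs. The genes shown were chosen by hand, and most of them have an E-box, so they do not represent the 50. POLR1A, NPM1 and NCL, also leading genes of their roles, had none of the motifs and are not shown. Each sequence is 300 bases long and is written 5′ to 3′ on the strand of the gene, with E-box and ETS letters in capitals.
EBNA1BP2 (chr1:43172241-43172540, minus strand): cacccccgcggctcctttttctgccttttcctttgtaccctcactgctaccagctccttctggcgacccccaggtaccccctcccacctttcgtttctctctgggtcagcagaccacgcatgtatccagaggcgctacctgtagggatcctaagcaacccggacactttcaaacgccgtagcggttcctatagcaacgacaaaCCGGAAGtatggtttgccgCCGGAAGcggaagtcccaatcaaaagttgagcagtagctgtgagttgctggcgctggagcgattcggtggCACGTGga
PES1 (chr22:30591861-30592160, minus strand): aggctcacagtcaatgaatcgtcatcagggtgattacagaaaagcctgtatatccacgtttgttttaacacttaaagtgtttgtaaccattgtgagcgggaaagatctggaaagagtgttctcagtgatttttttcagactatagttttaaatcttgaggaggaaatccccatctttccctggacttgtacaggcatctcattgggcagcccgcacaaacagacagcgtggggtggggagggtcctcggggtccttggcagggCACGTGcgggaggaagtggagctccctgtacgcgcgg
FBL (chr19:39846330-39846629, minus strand): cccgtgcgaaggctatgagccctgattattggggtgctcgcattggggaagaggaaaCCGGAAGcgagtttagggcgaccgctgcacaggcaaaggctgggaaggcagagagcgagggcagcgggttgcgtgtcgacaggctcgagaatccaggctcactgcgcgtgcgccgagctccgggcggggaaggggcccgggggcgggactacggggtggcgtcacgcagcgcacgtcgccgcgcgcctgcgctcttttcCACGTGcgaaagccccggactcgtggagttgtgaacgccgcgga
RRP9 (chr3:51941855-51942154, minus strand): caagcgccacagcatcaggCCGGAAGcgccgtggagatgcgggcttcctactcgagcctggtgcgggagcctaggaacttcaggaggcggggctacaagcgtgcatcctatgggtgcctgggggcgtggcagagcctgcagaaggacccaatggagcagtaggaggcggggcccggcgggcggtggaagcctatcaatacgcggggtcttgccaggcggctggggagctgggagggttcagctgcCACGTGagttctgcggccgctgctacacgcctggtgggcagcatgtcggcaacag
BYSL (chr6:41921249-41921548, plus strand): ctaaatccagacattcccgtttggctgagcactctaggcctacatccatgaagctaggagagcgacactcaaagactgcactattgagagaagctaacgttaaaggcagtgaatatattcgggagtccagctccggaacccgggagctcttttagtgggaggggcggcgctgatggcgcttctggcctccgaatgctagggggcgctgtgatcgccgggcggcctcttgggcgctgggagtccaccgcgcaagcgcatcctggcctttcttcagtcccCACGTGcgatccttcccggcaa
UTP20 (chr12:101279855-101280154, plus strand): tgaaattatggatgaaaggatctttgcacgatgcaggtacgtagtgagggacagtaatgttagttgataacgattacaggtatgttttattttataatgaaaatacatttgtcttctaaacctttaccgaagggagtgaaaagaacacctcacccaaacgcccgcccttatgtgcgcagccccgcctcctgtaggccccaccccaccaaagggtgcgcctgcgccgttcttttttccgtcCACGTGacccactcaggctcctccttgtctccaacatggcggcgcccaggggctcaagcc
NAT10 (chr11:34105379-34105678, plus strand): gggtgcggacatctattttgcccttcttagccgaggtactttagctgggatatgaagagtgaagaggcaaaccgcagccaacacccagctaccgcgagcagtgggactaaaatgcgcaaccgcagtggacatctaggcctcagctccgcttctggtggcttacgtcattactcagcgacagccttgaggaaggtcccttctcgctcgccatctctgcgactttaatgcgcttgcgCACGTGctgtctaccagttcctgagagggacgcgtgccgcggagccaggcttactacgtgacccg
DKC1 (chrX:154762614-154762913, plus strand): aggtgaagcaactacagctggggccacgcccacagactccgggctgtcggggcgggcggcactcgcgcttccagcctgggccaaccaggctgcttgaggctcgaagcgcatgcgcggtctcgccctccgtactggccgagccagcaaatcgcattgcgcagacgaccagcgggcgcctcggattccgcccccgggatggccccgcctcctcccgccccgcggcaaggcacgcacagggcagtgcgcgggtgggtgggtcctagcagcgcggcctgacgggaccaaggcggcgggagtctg

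With the start base counted as 0, the E-box began at 42 in EBNA1BP2, 13 in PES1, 6 in FBL, -5 in RRP9, 28 in BYSL, -10 in UTP20 and -15 in NAT10. The ETS cores began at -47 and -28 in EBNA1BP2, -193 in FBL and -231 in RRP9. An E-box was found in 21 of the 50 genes (42.0%), in 865 of 7111 listed genes with a window (12.2%) and in 2396 of all 27305 genes of the promoter table (8.77%). The ETS core was found in 20 of the 50 genes (40.0%), compared with 20.8% of listed genes and 12.2% of all genes. The YY1 motif was found in 2 of the 50 genes (4.0%), 6.31% of listed genes and 3.52% of all genes. An E-box and an ETS core in the same window occurred in 7 of the 50 genes (14.0%), 2.18% of listed genes and 1.25% of all genes. By role, E-boxes occurred in 4 of 7 snoRNP genes, 6 of 12 large subunit genes, 3 of 6 late small subunit genes, 2 of 4 genes of nucleolar chaperones and structural proteins, 6 of 16 processome genes and 0 of 5 RNA polymerase I genes. These matches describe the letters of the windows, and binding was not measured.

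In HepG2, ribosome biogenesis genes were mostly higher with siFASRL. At an adjusted p under 0.05 in limma (Benjamini-Hochberg over all 8144 tested genes), 55 of 58 genes were higher, where 44.8% of all tested genes were higher. NAT10 alone was lower, where 44.3% of all tested genes were lower, and WDR12 and RRN3 did not pass. The median log2 fold change of the 58 genes was 0.63 (quartiles 0.41 and 0.85), beside 0.10 (quartiles -0.56 and 0.38) over all tested genes. The siFASRL values lay above all siNC values for 55 genes, where this held for 45.4% of all tested genes. NOLC1, RRP12, EBNA1BP2, DKC1, EMG1, DDX21 and NOP16 reached a log2 fold change of at least 1, which 3.61% of all tested genes did. Fold changes are on the log2(value + 1) scale, on which genes of low value change less than on a plain log2 scale.

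In LM3, 53 of 58 genes were higher with siFASRL, where 33.9% of the 7483 tested genes were higher, and none was lower, where 43.5% were lower. At an unadjusted p under 0.05 in limma, 1 gene (NAT10) was lower. NAT10, UTP3, UBTF, NOP10 and WDR12 did not pass the adjusted threshold. The median log2 fold change was 0.67 (quartiles 0.46 and 0.83), beside -0.06 (quartiles -0.47 and 0.27) over all tested genes. No overlap, with siFASRL above siNC, was seen for 55 genes, where 35.6% of tested genes showed it. NOLC1, DKC1, DDX21, NOP56 and RRP1 reached a log2 fold change of at least 1, where 1.42% of tested genes did. Scaling the libraries by median of ratios moved the median of all LM3 genes by over 0.1, from -0.06 to 0.05, and the median of the 58 genes to 0.79. The difference between these medians was 0.73 as deposited and 0.74 after that scaling. With quantile normalization the medians were 0.03 for all LM3 genes and 0.61 for the 58, a difference of 0.59.

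The HepG2 and LM3 comparisons share no libraries. Higher in both lines were 52 of 58 genes (89.7%), where 2176 of 7349 genes tested in both lines (29.6%) were. No gene of the 58 was lower in both lines, where 2646 of the 7349 genes were. None was called in opposite directions, where 390 of the 7349 were. NOLC1, DKC1 and DDX21 reached a log2 fold change of at least 1 in both lines, where 67 of the 7349 genes did. The exact permutation test of a single gene (two-sided, 3 against 3) cannot go below 0.1, and its p was above 0.1 for RRN3 (0.8) and WDR12 (0.3) in HepG2 and for UBTF (0.4) and UTP3 (1) in LM3.

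**Figure D1:**
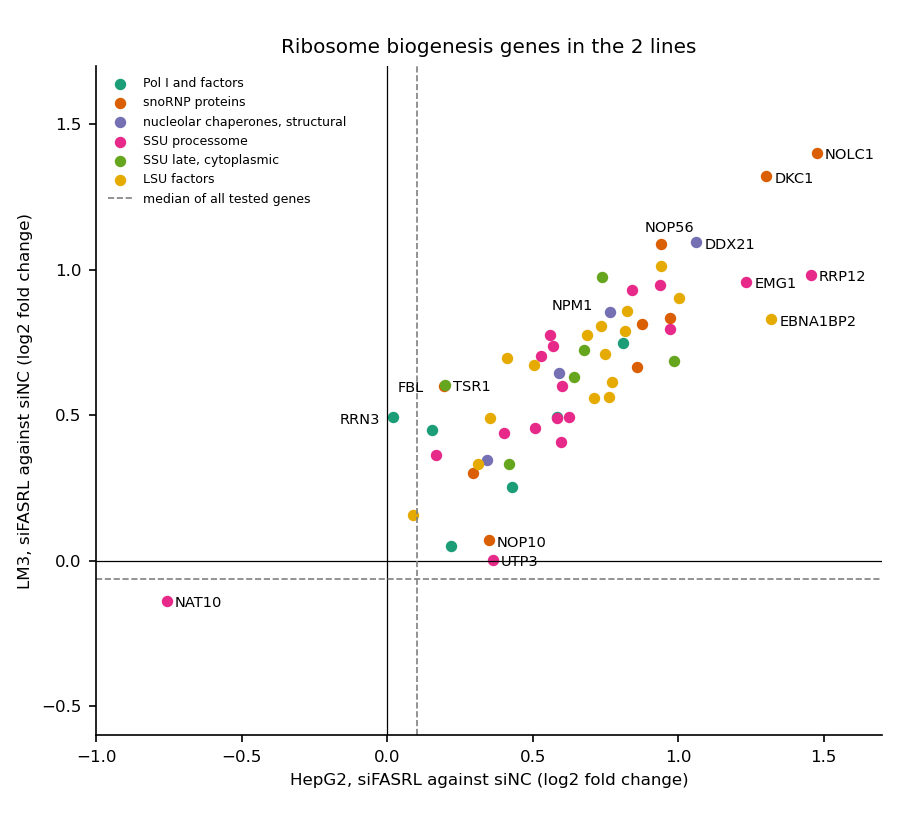
Log2 fold change with siFASRL against siNC in HepG2 (x axis) and LM3 (y axis) for the 58 genes, coloured by role, with dashed lines at the median of all tested genes. As deposited, 57 of 58 lie above 0 on each axis (56 in HepG2 and 55 in LM3 with quantile normalization), and NOLC1 and DKC1 lie farthest to the upper right.

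RPLP0, a protein of the ribosomal stalk, fell in the same libraries. Its values in HepG2 were 1254, 1506 and 1331 with siNC and 46.4, 52.9 and 52.8 with siFASRL, a log2 fold change of -4.72 (SE 0.08, limma adjusted p = 6.79e-10). In LM3 they were 1799, 2299.6 and 2247 with siNC and 125, 140.0 and 139.6 with siFASRL (log2 fold change -3.95, SE 0.10, limma adjusted p = 1.57e-07). Its partners in the stalk, RPLP1 and RPLP2, had log2 fold changes of 0.14 and 0.14 in HepG2, neither past the threshold, and 0.39 and 0.26 in LM3. RPLP1 and RPLP2 were named after their values were seen. RefSeq names 12 pseudogenes after RPLP0, so its level is uncertain where reads were shared with them.

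The summed value of the 58 genes rose where RPLP0 fell. It was 2853, 2617 and 2935 in the HepG2 siNC libraries and 4523, 4506 and 4513 in the siFASRL libraries. In LM3 it was 3802, 3478 and 3584 with siNC and 6117, 5930.0 and 6118 with siFASRL. The groups did not overlap in either line. As a percentage of the listed values, the sum was 0.856, 0.783 and 0.867 in HepG2 siNC and 1.3, 1.27 and 1.29 in HepG2 siFASRL, and 1.2, 1.09 and 1.11 in LM3 siNC and 1.76, 1.7 and 1.76 in LM3 siFASRL. NPM1 made up a large part of it. Without NPM1 the sum went from 1928, 1822 and 1959.5 to 3010.4, 2987 and 2976 in HepG2 and from 2538, 2425 and 2481 to 4035, 3964 and 4002 in LM3. RPLP0 and the sum form separate clusters by group, so no correlation across libraries is given, and whether one follows from the other was not tested. In bulk RNA, fewer cells expressing a gene and less RNA per cell cannot be told apart.

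**Figure D2:**
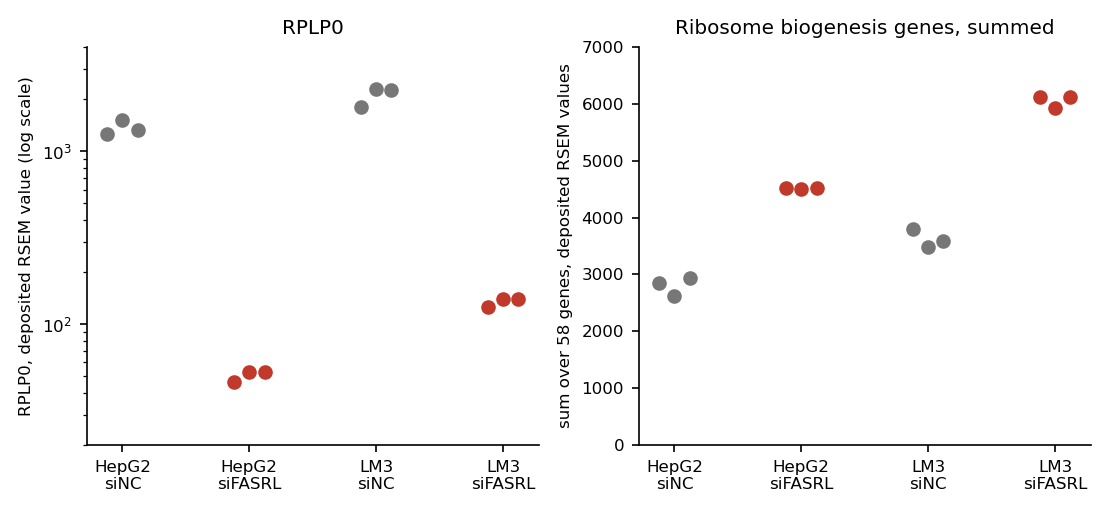
RPLP0 (left, deposited RSEM value on a log axis) and the summed value of the 58 genes (right, linear axis from 0) in each of the 12 libraries. RPLP0 is lower and the sum higher in all 6 siFASRL libraries than in the siNC libraries of the same line.

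Other values moved with the treatment. The summed hepatocyte markers in HepG2 fell to 2508, 2534 and 2573 with siFASRL, with 8 of 9 lower and APOA2 higher, and in LM3 the sum was 7.55, 7.69 and 6.34. Of 6 fibroblast markers 5 were listed, and their sum went from 70.6, 70.9 and 72.2 to 35.4, 32.3 and 33.3 in HepG2, with COL3A1 the most abundant with siNC, and from 15.1, 14.3 and 13.2 to 4.69, 5.86 and 5.25 in LM3, where COL3A1, DCN and LUM were at or near 0. Of 6 immune markers only LYZ was listed (84.5, 86.4 and 77.2 to 42.7, 45.8 and 49.9 in HepG2). In LM3 LYZ went from 1.36, 1.71 and 1.73 to 0.77, 1.2 and 1.42, which overlap (-0.30, limma adjusted p = 0.0391). Of 4 endothelial markers only VWF was listed, and it was near 0. The part of these changes in the rise of the ribosome biogenesis genes was not tested.

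RNA polymerase I and its factors had the smallest median change of the roles. In HepG2, 5 of 6 listed genes were higher with a median log2 fold change of 0.32, and in LM3 5 of 6 with a median of 0.47. Of all tested genes, 44.8% were higher in HepG2 and 33.9% in LM3. POLR1A, its largest subunit, had values of 6.98, 7.47 and 6.97 with siNC and 10.1, 9.81 and 10.0 with siFASRL in HepG2 (log2 fold change 0.43, limma adjusted p = 4.75e-05). In LM3 its values were 11, 11.6 and 11.1 with siNC and 13.7, 13.4 and 13.5 with siFASRL (0.25 on the log2 scale, limma adjusted p = 0.00127). The siNC and siFASRL values of POLR1A did not overlap in either line. POLR1B, the second largest subunit, rose more, by a log2 fold change of 0.81 in HepG2 and 0.75 in LM3, and was singled out after its values were seen. POLR1E, a further subunit, rose by 0.58 and 0.49, and was also chosen after its values were seen. POLR1C, a subunit shared with RNA polymerase III, rose by 0.15 in HepG2 (limma adjusted p = 0.0411) and 0.45 in LM3. The HepG2 call of POLR1C was lost with quantile normalization (0.08, limma adjusted p = 0.224) and in 5 of 6 fits that left out 1 HepG2 library, with log2 fold changes from 0.13 to 0.17 in those 5 and 0.21 without siFASRL replicate 1, where it was kept, and exons of 4 other genes overlap those of POLR1C on the other strand.

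RRN3, which links RNA polymerase I to its promoter, differed between lines. In HepG2 its values were 24.3, 21.7 and 22.8 with siNC and 22.8, 24.5 and 22.6 with siFASRL, which overlap (log2 fold change 0.02, limma adjusted p = 0.752). In LM3 they were 19.0, 18.2 and 18.3 with siNC and 26.6, 26.2 and 26.4 with siFASRL, which do not overlap (0.49, limma adjusted p = 2.17e-05). The difference of the changes was 0.47 (limma interaction, adjusted p = 0.000162). UBTF, which binds the ribosomal RNA gene promoter, rose by 0.22 in HepG2, and in LM3 its values overlapped (0.05, limma adjusted p = 0.462). It passed in LM3 with median-of-ratios scaling (0.17, limma adjusted p = 0.0327) and without siNC replicate 1 (0.11, limma adjusted p = 0.0431), and was -0.003 with quantile normalization (limma adjusted p = 0.967) and 0.02 without siNC replicate 2 (limma adjusted p = 0.817). UBTF was chosen after its values were seen.

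The snoRNP proteins had the largest median change in both lines, 0.87 in HepG2 and 0.81 in LM3. Higher were 9 of 9 in HepG2, beside 44.8% of all tested genes, and 8 of 9 in LM3, beside 33.9%. DKC1, the pseudouridine synthase of box H/ACA snoRNPs and telomerase, had values of 23.5, 22.0 and 24.0 with siNC and 60.9, 56.6 and 58.2 with siFASRL in HepG2. In LM3 its values were 57.7, 49.4 and 51.1 with siNC and 134, 131 and 134 with siFASRL. All siFASRL values lay above all siNC values of their line, and the log2 fold changes were 1.30 (SE 0.06, limma adjusted p = 9.86e-08) and 1.32 (SE 0.07, limma adjusted p = 8.21e-07). NOLC1, a nucleolar phosphoprotein that binds snoRNPs, had 31.4, 27.9 and 32.9 with siNC and 93.4, 81.6 and 86.6 with siFASRL in HepG2 and 67.2, 54.6 and 57.1 with siNC and 165, 153 and 159 with siFASRL in LM3. Its log2 fold change was 1.48 in HepG2 and 1.40 in LM3, and the groups did not overlap. On this scale these were the largest of the 58 genes, but in HepG2 the plain ratio of siFASRL to siNC means was higher for RRP12 (2.95) than for NOLC1 (2.84).

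NOP56, a core protein of box C/D snoRNPs, went from 73.4 ± 3.43 to 142 ± 8.27 in HepG2 (SD, n = 3) and from 57.6 ± 2.49 to 124 ± 0.585 in LM3, log2 fold changes of 0.94 and 1.09. FBL, the methyltransferase of the same particles, changed less in HepG2. Its values were 139, 149 and 140.4 with siNC and 154, 169 and 168 with siFASRL in HepG2 and 187, 209 and 218 with siNC and 310.5, 314 and 306 with siFASRL in LM3. The HepG2 groups lay close to each other without overlap, and the LM3 groups lay far apart. The log2 fold changes were 0.19 (limma adjusted p = 0.0129) and 0.60 (limma adjusted p = 4.3e-05), and they differed by 0.41 (limma interaction, adjusted p = 0.00182). The HepG2 call of FBL was lost without siFASRL replicate 2 (0.17, limma adjusted p = 0.0551) or 3 (0.18, limma adjusted p = 0.0519) and with quantile normalization (0.11, limma adjusted p = 0.132).

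Among the other H/ACA proteins, GAR1 rose by 0.87 and 0.81, and NHP2 by 0.30 and 0.30, in HepG2 and LM3. The HepG2 call of NHP2 was lost with quantile normalization (0.13, limma adjusted p = 0.061). NOP10 rose by 0.35 in HepG2, and in LM3 its values of 112, 114 and 116 with siNC and 117, 121 and 121 with siFASRL did not overlap but gave a log2 fold change of 0.07 (limma adjusted p = 0.204), which passed with median-of-ratios scaling (0.19, limma adjusted p = 0.0059) and was below 0 with quantile normalization (-0.03, limma adjusted p = 0.593). RRP9, of the U3 particle, rose by 0.97 and 0.84, and NOP58, the partner of NOP56, by 0.86 and 0.66. GAR1, NOP10, RRP9 and NOP58 were chosen after their values were seen. The ratio of the DKC1 value to the NHP2 value, in deposited units, went from 0.215 ± 0.011 to 0.442 ± 0.035 in HepG2 and from 0.505 ± 0.086 to 1.03 ± 0.033 in LM3 (SD, n = 3). The ratio of NOP56 to FBL went from 0.514 ± 0.042 to 0.87 ± 0.092 in HepG2 and from 0.283 ± 0.027 to 0.398 ± 0.006 in LM3. The ratio of NOP56 to NOP58 was 2.10 ± 0.084 with siNC and 2.22 ± 0.294 with siFASRL in HepG2, which overlap, and went from 1.05 ± 0.01 to 1.41 ± 0.011 in LM3. These ratios were chosen after the values were seen and are given as a description.

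Nucleolar chaperones and structural proteins were higher in both lines in 4 of 4 cases, beside 29.6% of genes tested in both lines. Their medians were 0.68 in HepG2 and 0.75 in LM3. NPM1, a histone and ribosomal protein chaperone and the most abundant of the 58 genes by value, had 925, 795 and 975 with siNC and 1513, 1519 and 1537 with siFASRL in HepG2. In LM3 its values were 1264, 1052 and 1103 with siNC and 2082, 1966 and 2116 with siFASRL. The groups did not overlap, and the log2 fold changes were 0.77 (SE 0.08, limma adjusted p = 1.04e-05) and 0.85 (SE 0.07, limma adjusted p = 1.34e-05). RefSeq names 50 pseudogenes after NPM1, and reads shared with such copies could be split, so its level is uncertain. NCL, or nucleolin, an RNA-binding protein of the nucleolus, went from 248 ± 24.8 to 374 ± 24.9 in HepG2 and from 308 ± 41.6 to 479 ± 8.51 in LM3 (SD, n = 3), log2 fold changes of 0.59 and 0.65. DDX21, a helicase that acts in ribosomal RNA transcription and processing, had 51.7, 49.2 and 52.5 with siNC and 108, 107 and 108 with siFASRL in HepG2, and 114, 95.5 and 100.5 with siNC and 220.1, 216 and 228 with siFASRL in LM3. The groups did not overlap, and the log2 fold changes were 1.06 and 1.09. GNL3, a nucleolar GTPase also called nucleostemin, changed least of the 4, by 0.34 and 0.35.

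**Figure D3:**
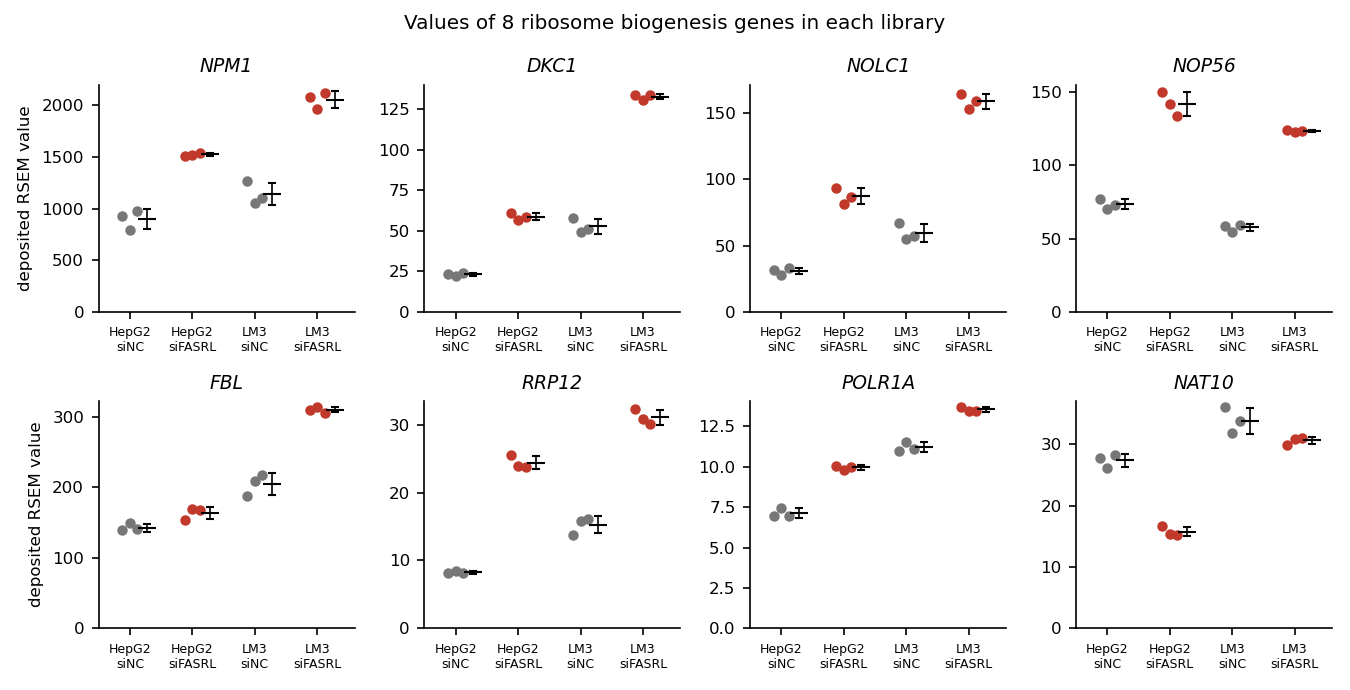
Deposited RSEM values of 8 genes in each library (points), with the mean and SD of 3 replicates (black), for both lines and treatments, on linear axes from 0. Values rise with siFASRL for 7 of the genes, and NAT10 falls in HepG2.

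In the small subunit processome, 16 of 17 listed genes were higher and 1 lower in HepG2 (median 0.58), and 15 were higher in LM3 (median 0.60). RRP12, which acts in maturation and export of pre-ribosomes, had 8.17, 8.47 and 8.12 with siNC and 25.5, 23.9 and 23.7 with siFASRL in HepG2, and 13.8, 15.8 and 16.2 with siNC and 32.3, 30.9 and 30.1 with siFASRL in LM3. The groups did not overlap. The change was 1.46 in HepG2 (limma adjusted p = 4.59e-08) and 0.98 in LM3 (limma adjusted p = 3.92e-06), a difference of -0.47 (limma interaction, adjusted p = 0.000548). EMG1, a methyltransferase of the small subunit RNA, rose by 1.23 in HepG2 and 0.96 in LM3. UTP20, a large scaffold protein, had 5.73, 5.67 and 5.40 with siNC and 8.29, 8.19 and 8.64 with siFASRL in HepG2 and 10.8, 11.2 and 11.9 with siNC and 15.4, 16.2 and 15.9 with siFASRL in LM3, and rose by 0.51 and 0.45 on the log2 scale. UTP15 had the smallest change of the processome genes past the threshold in HepG2, by 0.17 (limma adjusted p = 0.0232), and that call was lost without siFASRL replicate 3 (0.12, limma adjusted p = 0.114) or siNC replicate 3 (0.16, limma adjusted p = 0.0578). Of the remaining processome genes, grouped after their values were seen, BMS1, DDX10 and WDR43 rose by 0.84 to 0.97 in HepG2 and 0.80 to 0.95 in LM3. UTP6, UTP11, UTP14A, UTP18, NOP14, NOC4L, WDR3 and WDR75 rose by 0.40 to 0.63 in HepG2 and 0.41 to 0.77 in LM3.

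UTP3, a processome protein, rose in HepG2 and not past the threshold in LM3. Its values were 10.3, 9.81 and 10.8 with siNC and 13.6, 13.0 and 14.0 with siFASRL in HepG2, which do not overlap (0.36, limma adjusted p = 0.000262). They were 12.7, 12.8 and 12.6 with siNC and 12.4, 13.0 and 12.7 with siFASRL in LM3, which overlap (0.0016, limma adjusted p = 0.977). The changes differed by -0.36 (limma interaction, adjusted p = 0.000769). With quantile normalization UTP3 passed the threshold in LM3 (0.12, limma adjusted p = 0.04).

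NAT10, which acetylates cytidines of the small subunit RNA, was the gene that fell in HepG2. Its values were 27.7, 26.2 and 28.2 with siNC and 16.7, 15.4 and 15.3 with siFASRL in HepG2, all siFASRL values below all siNC values (-0.76, SE 0.06, limma adjusted p = 2.25e-06). In LM3 they were 36, 31.8 and 33.7 with siNC and 29.9, 30.9 and 31.1 with siFASRL, again without overlap but nearer to each other (-0.14, SE 0.06, limma adjusted p = 0.0561). The changes differed by 0.62 (limma interaction, adjusted p = 3.63e-05). NAT10 did pass as lower in LM3 with a pseudocount of 5 (limma adjusted p = 0.038), with quantile normalization (0.0268), with a trend in the variance prior (0.0461), in a joint fit of all 12 libraries (0.0408) and without siNC replicate 2 (0.0279). It did not pass in the other settings, among them median-of-ratios scaling, with which the LM3 change was -0.02 (limma adjusted p = 0.736), and the replicate block (limma adjusted p = 0.0926). The ratio of NAT10 to NOP14, a processome protein chosen after the values were seen, went from 1.29 ± 0.068 to 0.49 ± 0.033 in HepG2 and from 1.43 ± 0.037 to 0.914 ± 0.046 in LM3 (SD, n = 3).

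Late and cytoplasmic small subunit factors were higher in 6 of 6 cases in both lines, with a median of 0.66 in each. Higher in both lines were 29.6% of the genes tested in both. BYSL, or bystin, which helps release the nascent small subunit from the nucleolus, had 17.2, 20.4 and 18.8 with siNC and 36.9, 38.8 and 38.6 with siFASRL in HepG2, and 14.0, 15.7 and 15.9 with siNC and 25.3, 24.7 and 25.2 with siFASRL in LM3. The groups did not overlap, and the changes were 0.99 and 0.69, differing by -0.30 (limma interaction, adjusted p = 0.015). TSR1, a factor of late small subunit precursors, rose by 0.20 in HepG2 (limma adjusted p = 0.0071) and 0.60 in LM3 (limma adjusted p = 1.39e-05), a difference of 0.41 (limma interaction, adjusted p = 0.000365). PNO1, RIOK1 and RIOK2, chosen after their values were seen, rose by 0.64 to 0.74 in HepG2 and 0.63 to 0.98 in LM3. The HepG2 call of TSR1 was lost with quantile normalization (0.12, limma adjusted p = 0.0714). LTV1, a small subunit export factor, had the smallest LM3 change of these 6 genes, by 0.33 (limma adjusted p = 0.0155), and lost its call without siFASRL replicate 3 (0.32, limma adjusted p = 0.0544), siNC replicate 2 (0.26, limma adjusted p = 0.05) or siNC replicate 3 (0.28, limma adjusted p = 0.0538).

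Large subunit factors were higher in 15 of 16 cases in both lines, beside 29.6% of genes tested in both lines. Their medians were 0.74 in HepG2 and 0.70 in LM3, and WDR12 did not pass in either. EBNA1BP2, which acts in processing of the large subunit RNA, had 55.0, 52.4 and 56.3 with siNC and 135, 141 and 137 with siFASRL in HepG2 and 108, 111 and 111 with siNC and 198, 193 and 196 with siFASRL in LM3. Its change was 1.32 in HepG2 (limma adjusted p = 7.22e-08) and 0.83 in LM3 (limma adjusted p = 1.44e-06), a difference of -0.49 (limma interaction, adjusted p = 3.63e-05). PES1, BOP1 and WDR12 form one complex. PES1 values were 41.8, 40.3 and 40.7 with siNC and 68.6, 69.6 and 68.1 with siFASRL in HepG2 and 42.0, 40.8 and 44.0 with siNC and 78.4, 73.1 and 72.5 with siFASRL in LM3, log2 fold changes of 0.73 and 0.81. BOP1 rose by 0.71 and 0.56. WDR12 values were 16.5, 16.9 and 18.2 with siNC and 18.2, 18.2 and 18.7 with siFASRL in HepG2, which overlap (0.09, limma adjusted p = 0.169), and in LM3 its change was 0.16 (limma adjusted p = 0.0553). WDR12 did pass as higher in LM3 with a pseudocount of 5 (limma adjusted p = 0.0489), with median-of-ratios scaling (0.00547), with quantile normalization (0.00819), in the joint fit (0.0313) and without siNC replicate 1 (0.0202) or siNC replicate 3 (0.0451), and in HepG2 with the zero shifted to the middle of the gap, an alternative chosen after seeing the data (0.00621). Its LM3 change was 0.09 without siNC replicate 2 (limma adjusted p = 0.196). RRP1, a protein of nucleolar large subunit processing, rose by 0.94 in HepG2 and 1.01 in LM3. BOP1, WDR12, NOP16 and the genes of the next 2 groups, other than RRP1B, were chosen after their values were seen. NOP16 values were 20.4, 24.1 and 21.0 with siNC and 39.8, 48.7 and 46.0 with siFASRL in HepG2 and 31.1, 34.8 and 33.4 with siNC and 62.7, 63 and 62.3 with siFASRL in LM3. GNL2, RRS1, NOP2, NOC2L, DDX56 and MRTO4 rose by 0.69 to 0.82 in HepG2 and 0.56 to 0.86 in LM3, and NMD3, NOC3L, DDX18 and RRP1B by 0.31 to 0.50 in HepG2 and 0.33 to 0.70 in LM3.

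The test of the difference between lines, which shares its libraries with both comparisons, called 15 of 58 genes. The change was higher in LM3 for 7, where 19.5% of 8285 tested genes were called in that direction, and lower for 8, where 27.2% were. The median difference was 0.004 over the 58 genes. Of all called genes in this test, 41.7% were higher as deposited and 52.7% after median-of-ratios scaling, and that scaling changed the split of the 58 genes from 7 and 8 to 14 and 4. Quantile normalization gave 7 and 12. In the 12 fits without 1 library each, the call of a difference was lost in 7 for POLR1A (limma adjusted p from 0.0528 to 0.0808), 4 for POLR1C (0.0533 to 0.0586), 5 for NOC3L (0.0522 to 0.0588), 8 for UTP6 (0.0525 to 0.106) and 8 for NOP10 (0.0553 to 0.0772). In those fits the log2 difference was -0.158 to -0.175 for POLR1A (-0.18 with all libraries), 0.242 to 0.285 for POLR1C (0.30), 0.236 to 0.27 for NOC3L (0.29), -0.143 to -0.198 for UTP6 (-0.19) and -0.181 to -0.287 for NOP10 (-0.28), the -0.181 being without HepG2 siNC replicate 2. The call was lost with median-of-ratios scaling for POLR1A (-0.109), EMG1 (-0.204), UTP6 (-0.119) and NOP10 (-0.207), and with quantile normalization for NOC3L (0.248) and WDR3 (0.114). It was also lost with a replicate block for POLR1A and UTP6, which leaves the log2 difference as it was, and with a pseudocount of 0.1 for NOP10 (-0.281).

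Levels without knockdown also differed between lines. With siNC, 42 of 58 genes were higher in LM3 than in HepG2, where 41.5% of 8285 genes were, and 9 were lower, where 42.1% were. The median log2 difference was 0.43, beside -0.002 over all tested genes. DKC1 (1.15), RRP9 (1.04), GAR1 (1.03) and WDR3 (1.02) reached at least 1. These are 4 of the 58 genes, a share similar to the 634 of 8285 tested genes that did so. RRP9, GAR1 and WDR3 were named after their values were seen.

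Other genes of ribosome biogenesis, listed apart from the 58, were also mostly higher. Of 124 named, 102 were listed, of which 89 were higher and 3 lower in HepG2 (median 0.49) and 86 higher and 3 lower in LM3 (median 0.50). Of all tested genes, 44.8% were higher and 44.3% lower in HepG2, and 33.9% and 43.5% in LM3. The same shares apply to each list of this paragraph. Higher in both lines were 77 of 102 (75.5%), beside 29.6% of all genes. Further RNA polymerase I factors were higher in 6 of 6 cases in HepG2 and 5 of 6 in LM3, with TAF1B lower in LM3 (-0.21), a call lost with median-of-ratios scaling (-0.10, limma adjusted p = 0.166), with quantile normalization (-0.01, limma adjusted p = 0.873) and without siFASRL replicate 1 (-0.157, limma adjusted p = 0.0661), siFASRL replicate 3 (-0.204 and 0.0503) or siNC replicate 2 (-0.189 and 0.0505). In HepG2 TAF1B rose by 0.23, and the call was lost without siFASRL replicate 2 (0.172, limma adjusted p = 0.0825), siNC replicate 2 (0.175 and 0.0678) or siNC replicate 3 (0.206 and 0.061). CD3EAP rose by 0.23 in HepG2, and its call was lost without siFASRL replicate 2 (0.209, limma adjusted p = 0.0735), siFASRL replicate 3 (0.228 and 0.0627) or siNC replicate 1 (0.134 and 0.0903). TCOF1, or treacle, a cofactor of RNA polymerase I, rose by 1.28 and 0.96. Further small subunit factors were higher in 32 of 36 cases and lower in 1 in each line (medians 0.56 and 0.55), and NOP9 was the lower one (-0.37 and -0.36). NOB1, the nuclease that makes the end of the small subunit RNA, rose by 0.44 in HepG2 and 0.87 in LM3, a difference of 0.43 (limma interaction, adjusted p = 0.00068). In GENCODE v29, exons of the gene AC092115.3, taken here to be FASRL, lie on the other strand of NOB1 exons. The counting is not stated to use strand, so reads of the pair cannot be told apart. Further large subunit factors were higher in 35 of 41 cases in HepG2 and 33 of 41 in LM3 (medians 0.50 and 0.45), with SBDS rising by 1.45 and 0.92 and RPF1 lower (-0.42 and -0.18). The LM3 call of RPF1 was lost with median-of-ratios scaling (-0.07, limma adjusted p = 0.234). Exosome and RNA trimming genes were higher in 16 of 19 cases in each line (medians 0.39 and 0.31), with EXOSC6 lower in HepG2 (-0.65, limma adjusted p = 0.00209). MYC rose in both lines, with values of 39.7, 44.2 and 42.5 with siNC and 61.1, 68.5 and 66.4 with siFASRL in HepG2 and 56.0, 59.4 and 60.3 with siNC and 120.1, 115 and 114 with siFASRL in LM3, log2 fold changes of 0.62 (limma adjusted p = 1.55e-05) and 0.98 (limma adjusted p = 1.24e-06). Of 17 genes of factors that bind E-boxes or pair with such factors, 9 were listed, and USF1 and USF2 were not among them. Of the 9, 4 were higher and 5 lower in HepG2, beside 44.8% and 44.3% of all tested genes, and 3 higher and 5 lower in LM3, beside 33.9% and 43.5%.

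**Figure D4:**
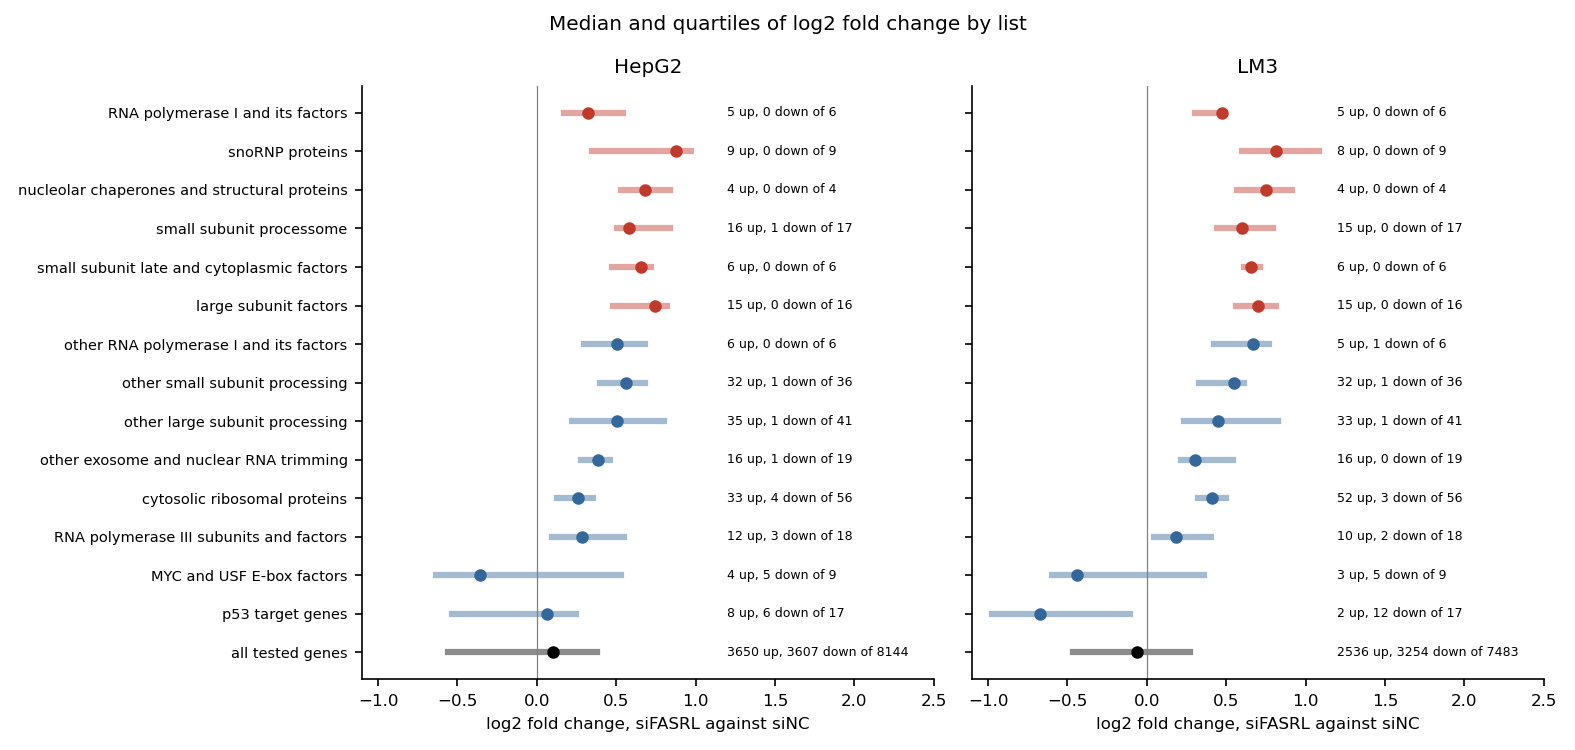
Median (point) and quartiles (bar) of the log2 fold change with siFASRL by list in HepG2 and LM3, with the number of genes higher and lower at an adjusted p under 0.05. The medians of the roles of the 58 genes (red) and of the other ribosome biogenesis lists lie to the right of all tested genes (black) in both lines. So do the medians of cytosolic ribosomal proteins and of RNA polymerase III subunits and factors. USF1 and USF2, named in 1 list, were not listed and add no values.

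Genes of related functions were counted in the same way, beside 44.8% of all tested genes higher and 44.3% lower in HepG2, and 33.9% higher and 43.5% lower in LM3. Differences between these lists were not tested. Cytosolic ribosomal proteins were higher in 33 of 56 listed genes and lower in 4 in HepG2 (median 0.26), and higher in 52 and lower in 3 in LM3 (median 0.41). In HepG2 this depended on scaling, since with quantile normalization 12 were higher and 11 lower (median 0.02), and in LM3 that setting left 24 higher and 3 lower (median 0.15). RPL22 was lower in both lines (-1.05 and -0.47). RNA polymerase III subunits and factors were higher in 12 and lower in 3 of 18 in HepG2 (median 0.28) and higher in 10 and lower in 2 in LM3 (median 0.18). Targets of p53 were higher in 8 and lower in 6 of 17 in HepG2 (median 0.06, beside 0.10 over all tested genes) and higher in 2 and lower in 12 in LM3 (median -0.68, beside -0.06), with CDKN1A, a cell cycle inhibitor, lower in both (-0.89 and -2.01).

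Some levels are uncertain for reasons of counting. Of the 58 genes, 16 have a pseudogene named after them in RefSeq, among them NPM1 with 50 and BMS1 with 21. For 24 genes, exons overlap exons of a gene on the other strand in GENCODE v29. Since the counting is not stated to use strand, reads of such pairs cannot be told apart.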

How the data were processed

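RNA-seq of 12 libraries (4 groups of 3) was used. The authors filtered reads with SOAPnuke, mapped them with HISAT2, aligned them to a coding gene set with Bowtie2 and computed expression per gene with RSEM. The values deposited by the authors are normalized RSEM values, FPKM or TPM not stated, with unknown depth. The submitters' processing notes name hg19, whereas the chromosome accessions in the tables are those of GRCh38. The authors tested their data with DESeq2, which needs counts, so limma was used here.

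From these values, log2(value + 1) was tested with limma 3.58.1 in R 4.3.3, per line on 6 libraries, and over all 12 libraries for the difference between lines and for the siNC groups. Genes reaching a value of 1 in 3 or more libraries were tested, with Benjamini-Hochberg adjustment over all of them. Calls used an adjusted p under 0.05, and larger changes also a log2 fold change of at least 1. The fits were tested on simulated data, and no result of that check is given or relied on here. Tables and figures were made with Python 3.11.15, pandas 2.3.3 and matplotlib 3.10.9. Of the 8842 listed genes, 8790 were found in RefSeq, and 17 symbols turned into dates were restored. In 1 table, 6 further columns repeat LM3 values and were not used.

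The members and lists were chosen with earlier results of these data known. Genes named with values were, per line, the 5 with the largest and the 5 with the lowest change past the threshold, the 3 largest and 3 lowest differences between lines, 1 or 2 leading genes per role, RPLP0, NOB1 and MYC, and at most 2 at either end of each other list. Other genes named in the text were chosen after their values were seen. Alternatives were pseudocounts 0.1 and 5, no filter or a minimum of 5, median-of-ratios and quantile scaling, a variance trend, a replicate block, a joint fit, each library left out in turn, and, chosen after seeing the data, a shifted zero in HepG2. ChIP-seq, tissue and animal data were not used here.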

Additional observations from a re-analysis of the deposited data

Results flagged for a closer look

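The change with siFASRL differed between the lines for the following genes, by the limma interaction term with Benjamini-Hochberg adjustment, each value being the log2 change in LM3 minus that in HepG2. Groups of 3 libraries were not tested for single libraries far from the others. Among the 58 genes, the difference was positive for NAT10 (0.62), RRN3 (0.47), TSR1 (0.41), FBL (0.41), POLR1C (0.3), NOC3L (0.29) and WDR3 (0.22). It was negative for POLR1A (-0.18), UTP6 (-0.19), EMG1 (-0.28), NOP10 (-0.28), BYSL (-0.3), UTP3 (-0.36), RRP12 (-0.47) and EBNA1BP2 (-0.49). The adjusted p ranged from 3.63e-05 (NAT10, EBNA1BP2) to 0.0409 (UTP6). For NAT10 a positive value means a smaller fall in LM3.

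Outside the 58 genes, the difference was positive for MLXIPL (0.78), RPLP0 (0.77), RPL22 (0.59), EXOSC6 (0.59), NOB1 (0.43), MYC (0.36), SESN1 (0.36), POLR3A (0.25), RPF1 (0.24) and XRN2 (0.22). It was negative for WDR74 (-0.31), TCOF1 (-0.32), PLK3 (-0.32), TAF1B (-0.43), GTF3A (-0.46), SBDS (-0.53), DHX37 (-0.55), CDKN1A (-1.12) and BTG2 (-2.32). Some of these values depend on the pseudocount, the scaling or single libraries. With a pseudocount of 0.1 the difference was 0.044 for SESN1 (adjusted p = 0.748) and 0.401 for MLXIPL (adjusted p = 0.213), both of low value in LM3. The plain ratio of siFASRL to siNC means was 0.355 in HepG2 and 0.349 in LM3 for SESN1, and 0.186 and 0.223 for MLXIPL. With quantile normalization the difference was larger, 0.832 for SESN1 (adjusted p = 3.87e-06) and 1.389 for MLXIPL (adjusted p = 3.21e-05), so whether either differs between lines depends on the processing. EXOSC6 (0.649, adjusted p = 0.065) and PLK3 (-0.379, adjusted p = 0.0595) also did not pass with that pseudocount, though both differences were larger than reported. Neither passed in 8 of the 12 fits without 1 library each. In those 8 fits the difference was 0.428 to 0.617 for EXOSC6 and -0.226 to -0.344 for PLK3. PLK3 also did not pass with a pseudocount of 5 (-0.183, adjusted p = 0.0549) or with median-of-ratios scaling (-0.255, adjusted p = 0.094), and was -0.478 with quantile normalization. Other values moved by over 1.5 times and still passed. CDKN1A was -0.385 with a pseudocount of 5 and -0.61 with quantile normalization, DHX37 -0.259 and -0.85, and with a pseudocount of 5 TCOF1 was -0.203, RRP12 -0.314 and POLR1A -0.108. POLR1A and UTP6 with median-of-ratios scaling (-0.109 and -0.119) and WDR3 with quantile normalization (0.114) did not pass. RPF1 did not pass in 6 of those 12 fits, and XRN2 did not pass without LM3 siNC replicate 2 (0.181, adjusted p = 0.06). RPLP0 fell less in LM3 than in HepG2, and BTG2, a p53 target, rose in HepG2 and fell in LM3.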

How the results depend on the processing

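Of the counts and medians over the 58 genes, 143 alternative values were classed as the same and 10 as moved. The tolerance used for these classes is not given here. The count of genes that differed between lines was never classed as moved. It was 15 as reported and ranged from 11 to 19 with each library left out in turn. With median-of-ratios scaling 14 were higher in LM3 and 4 lower, and with quantile normalization 7 and 12. Of the values of single genes named by the rule, which leaves out genes chosen after their values were seen, 1726 kept direction and side of the threshold, 18 newly passed it, 34 no longer passed and 12 changed sign. The cause of these changes was not tested.

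The count of genes lower in LM3, 0 as reported, was 1 (NAT10) with a pseudocount of 5, quantile normalization, a variance trend and the joint fit. The HepG2 median of 0.633 was 0.55 with a pseudocount of 5 and 0.753 with the zero at the middle of the gap, an alternative chosen after seeing the data. The LM3 median of 0.668 was 0.589 with a pseudocount of 5, 0.785 with median-of-ratios scaling and 0.612 with quantile normalization. Leaving out 1 library gave 52 to 55 genes higher and 1 to 1 lower in HepG2, 52 to 55 higher and 0 to 1 lower in LM3 (NAT10 was lower without siNC replicate 2), 11 to 19 that differed between lines, 40 to 42 higher and 9 to 9 lower in LM3 siNC, and medians of 0.593 to 0.662 in HepG2 and 0.648 to 0.682 in LM3.

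Some values changed sign. RRN3 in HepG2 (0.02 as reported) was -0.027 with quantile normalization, and ranged from -0.017 to 0.061 with 1 library left out, below 0 without siFASRL replicate 2 (-0.014) or siNC replicate 2 (-0.017). XRN2 in HepG2 ranged from -0.014 to 0.016 with 1 library left out (0.003 without siFASRL replicate 2, 0.016 without siNC replicate 3) and was not past the threshold as reported, but was called lower with quantile normalization (-0.154, adjusted p = 0.0172) and higher with the shifted zero (0.119, adjusted p = 0.0461). UTP3 in LM3 ranged from -0.013 without siFASRL replicate 2 to 0.015 (-0.004 without siNC replicate 3). Outside the rule, UBTF (0.05 as reported) and NOP10 (0.07) in LM3 were -0.003 and -0.029 with quantile normalization. POLR3A in LM3 was below 0 and not past the threshold as reported, and was 0.085 with quantile normalization. It was called lower with no filter (-0.114, limma adjusted p = 0.0258), in the joint fit (-0.114 and 0.0391) and without siNC replicate 1 (-0.132 and 0.023). EXOSC6 in LM3 (-0.06 as reported) was 0.043 with median-of-ratios scaling and 0.135 with quantile normalization. With 1 library left out it ranged from -0.215 without siNC replicate 1 to 0.062 without siNC replicate 2. At -0.215 it was called lower (limma adjusted p = 0.0108).

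Replicate numbers did not pair the samples. Deviations of same-numbered siNC and siFASRL libraries correlated with r = 0.312, 0.362 and -0.195 in HepG2 and -0.083, 0.091 and -0.163 in LM3, and not every library correlated best with its own number. In a fit with a block for the replicate number, 55 genes were higher and 1 lower in HepG2, 53 higher and 0 lower in LM3, 14 differed between lines, and 41 were higher and 9 lower in LM3 siNC, with medians of 0.633 and 0.668.

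Depth is unknown, so no counting error can be given, and with 3 libraries per group the spread is itself uncertain. In HepG2 few listed genes have a log2 fold change between -0.2 and -0.04, and how genes were listed is not stated. Both lines were tested on the same listed genes, so counts and their adjustment refer to those genes in LM3 as in HepG2.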
